A study of Mus musculus with 19 samples.

Results

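Fchsd2, Ppfibp1, Ahdc1, Map3k5, Tns1 and Tsc22d1 were examined in livers with and without the hnRNP RALY. These 6 genes of the 24054 gene symbols in the liver RNA-seq table were chosen by their values in these same 6 livers. The choice asked for close values within each group, no overlap between L-RalyKO and control mice, and group means about 1.7- to 2.2-fold apart. Not all were close, since relative to their mean the controls of Map3k5 and Tsc22d1 spread more than in 73.9% and 71.0% of tested genes. Because the genes were chosen on these values, the values are given as a description, without a test. Fchsd2, Ahdc1, Map3k5 and Tns1 were higher in L-RalyKO liver, and Ppfibp1 and Tsc22d1 were lower.

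The livers came from chow-fed C57BL/6 mice that all carried Raly flox/flox alleles, in which exons 3 and 4 of Raly are flanked by LoxP sites. L-RalyKO mice (n = 3) had received AAV8.TBG.Cre and controls (n = 3, called wild type in the labels) AAV8.TBG.GFP, and the mice were killed 4 weeks later. The TBG promoter drives Cre in hepatocytes, so that the other cells of the liver keep an intact Raly gene, and the controls carry a virus and the floxed alleles too. The methods give male mice unless stated otherwise, and the age of these mice is not given in the sources used here.

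The genes have known roles in 3 settings. Map3k5 encodes ASK1, a stress-activated kinase that thioredoxin holds inactive and that acts through MAP2 kinases on p38 and JNK. Fchsd2, Ppfibp1 and Tns1 encode proteins of the cell cortex. FCHSD2 promotes actin assembly at clathrin-coated pits, and tensin-1 ties integrin tails to actin filaments. Liprin-β1 (PPFIBP1) pairs with liprin-α proteins and sits near adhesions with cortical microtubules. Ahdc1 encodes a nuclear protein with AT-hooks, which bind the minor groove of AT-rich DNA, and Tsc22d1 encodes a leucine zipper protein first found as a transcript that TGF-β induces.

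The sequence before the RefSeq start is shown for 4 of the genes, and in part for Tsc22d1, because the study examined RALY together with NF-Y, which binds CCAAT boxes. The stretches were matched exactly to NCBIM37 (mm9), are written 5′ to 3′ on the strand of the gene, and stop where an exon of the GENCODE vM1 annotation begins. For Ahdc1 none is shown, because 246 of the 250 bases lie in such an exon. Capitals mark CCAAT and GGGCGG (the SP1 box) on either strand, so that the reverse complements ATTGG and CCGCCC count too. They cover chr7:108257039-108257288 (+ strand) for Fchsd2, chr10:19654082-19654277 (+) for Map3k5, chr1:74171123-74171372 (−) for Tns1 and chr6:146836766-146837008 (+) for Ppfibp1. For Tsc22d1, which has 5 RefSeq starts, only the 30 bases around each CCAAT match are shown, at chr14:76903929-76903958 and chr14:76904251-76904280 (+).
Fchsd2: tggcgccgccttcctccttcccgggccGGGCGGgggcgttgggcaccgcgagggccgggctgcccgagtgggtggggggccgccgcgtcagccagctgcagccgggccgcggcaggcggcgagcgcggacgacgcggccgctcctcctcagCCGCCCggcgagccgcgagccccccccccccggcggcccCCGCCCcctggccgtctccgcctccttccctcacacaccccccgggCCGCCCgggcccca
Map3k5: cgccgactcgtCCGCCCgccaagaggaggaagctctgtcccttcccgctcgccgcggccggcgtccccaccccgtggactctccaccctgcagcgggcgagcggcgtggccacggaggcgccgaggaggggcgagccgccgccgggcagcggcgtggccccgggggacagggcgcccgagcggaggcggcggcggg
Tns1: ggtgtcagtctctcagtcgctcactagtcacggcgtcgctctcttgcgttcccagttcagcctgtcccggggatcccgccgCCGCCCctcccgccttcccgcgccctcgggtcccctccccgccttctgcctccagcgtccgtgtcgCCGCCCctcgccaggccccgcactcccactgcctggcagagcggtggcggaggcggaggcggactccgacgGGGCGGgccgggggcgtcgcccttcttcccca
Ppfibp1: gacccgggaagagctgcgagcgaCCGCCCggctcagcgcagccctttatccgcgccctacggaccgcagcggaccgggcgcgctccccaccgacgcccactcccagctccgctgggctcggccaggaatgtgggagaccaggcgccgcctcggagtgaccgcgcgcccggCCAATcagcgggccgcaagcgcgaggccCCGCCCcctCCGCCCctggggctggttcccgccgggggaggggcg
Tsc22d1, upstream match: tcttgtaagaacCCAATaattgaaatcgag
Tsc22d1, downstream match: cctatggcgcggCCAATcggcgcggcgcct

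Windows of 250 bases before each RefSeq start were searched, exon bases included. CCAAT was found before the single RefSeq start of Ppfibp1 (its first base 80 bases upstream) and before 2 of the 5 starts of Tsc22d1 (92 and 54 bases upstream). GENCODE vM1 gives more protein-coding starts, 5 for Ppfibp1, 4 for Map3k5, 3 each for Ahdc1 and Tns1 and 2 for Fchsd2. Only RefSeq starts were used for the windows. It was found before 0 of the 4 starts of Fchsd2, Ahdc1, Map3k5 and Tns1, which makes 3 of 10 windows in all. Of all 32851 RefSeq windows of this length, 33.8% hold CCAAT on either strand, and 35.3% of those of tested genes, so that the share in the 6 genes was near the background. GGGCGG was present in 8 of the 10 windows of the 6 genes, in 32.7% of all windows and in 56.7% of those of tested genes. Of the 10 windows, 5 were of Tsc22d1, and these held 46.0% to 74.0% G and C. The others held 69.2% (Ahdc1) to 84.0% (Fchsd2), where all windows had a median of 52.4% and an upper quartile of 61.2%. The part of this content in the GGGCGG count was not tested. TCACNCCAC, a form of the sterol regulatory element, was in 0 of the 10 windows and in 1.05% of all windows. These matches describe the letters of the windows only.

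The deposited values count the reads of a gene relative to the effective depth of its library, with no correction for the length of the gene. The livers gave between 28302983 and 38052705 reads on genes, and each of the 6 genes had between 409 and 12586 reads in every mouse. Raly itself had values of 6.34, 6.61 and 7.39 in L-RalyKO mice and of 50.1, 48.6 and 46.8 in controls, a log2 difference of −2.67 (standard error 0.069, adjusted p = 6.92e-07 from limma). Of the 11580 genes tested, whose values averaged 1 or more and which include all 6 genes, 6.55% had an adjusted p under 0.05 (limma, Benjamini-Hochberg), 3.36% higher and 3.19% lower in L-RalyKO liver. These are 389 and 369 genes, and scaling to the total count instead gave 324 rises and 469 falls. The groups did not overlap in 28.1% of these genes.

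The control 1 library stood apart from the other controls. Across genes its counts differed from theirs with a chi-square per degree of freedom of 84.5 and 100.9, against 21.4 between controls 2 and 3 and 14.8 to 32.6 between L-RalyKO libraries. With and without control 1, the log2 differences were 1.08 and 0.99 for Map3k5, 0.86 and 0.84 for Fchsd2, 0.76 and 0.79 for Tns1, −0.79 and −0.80 for Ppfibp1, 0.83 and 0.83 for Ahdc1 and −1.11 and −1.04 for Tsc22d1. Their direction could not turn without this library, because the 6 genes were chosen for groups that do not overlap.

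Map3k5 was measured at 83.3, 85.5 and 81.9 in L-RalyKO livers, while control livers gave 34.1, 41.3 and 41.8. The means were 83.6 ± 1.82 and 39.1 ± 4.33 (SD, n = 3), a level 2.14-fold higher in L-RalyKO liver. The control mice spread more than the L-RalyKO mice, with control 1 below the other two. The lowest L-RalyKO mouse was 1.96 times the highest control.

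Fchsd2 reached 47.7, 46.5 and 47.7 in L-RalyKO livers, while control livers gave 24.98, 26.8 and 24.98 (means 47.3 ± 0.677 and 25.6 ± 1.07, SD, n = 3), 1.85-fold higher with loss of RALY. In L-RalyKO liver all mice were alike, and control 2 stood slightly above the other two controls. The lowest L-RalyKO mouse was 1.73 times the highest control.

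Tns1 was at 344, 334 and 331 in L-RalyKO livers, while control livers gave 208, 183 and 204 (means 336 ± 6.999 and 199 ± 13.2, SD, n = 3). It was 1.69-fold higher in L-RalyKO liver, with all mice included the smallest difference of the 6 genes. The log2 difference of Ppfibp1 was smaller in size without L-RalyKO 3 (−0.7569 against 0.7708) and without control 3 (−0.7782 against 0.7815). For Tns1, control 2 was the lowest control and control 1 the highest, and the lowest L-RalyKO mouse was 1.59 times the highest control.

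Ppfibp1 went the other way. It was at 28.7, 27.0 and 25.8 in L-RalyKO livers, while control livers gave 46.9, 47.6 and 48.7 (means 27.2 ± 1.42 and 47.7 ± 0.878, SD, n = 3), 1.76-fold lower in L-RalyKO liver. The controls lay closer together than the L-RalyKO mice, and the lowest control was 1.64 times the highest L-RalyKO mouse.

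Ahdc1 was at 26.4, 27.5 and 25.02 in L-RalyKO livers, while control livers gave 14.2, 14.3 and 14.4 (means 26.3 ± 1.24 and 14.3 ± 0.125, SD, n = 3), 1.84-fold higher with loss of RALY. The controls were almost equal, and every L-RalyKO mouse lay above all of them. In the controls it had 476, 409 and 534 reads. The 95% Poisson intervals of the control values ran from 12.9 to 15.5, from 13.0 to 15.8 and from 13.2 to 15.7, each wider than the distance between the controls. Such intervals cover counting error only.

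Tsc22d1 was at 40.4, 35.3 and 40.5 in L-RalyKO livers, while control livers gave 94.3, 84.5 and 76.7 (means 38.7 ± 2.97 and 85.2 ± 8.82, SD, n = 3). It was 2.199-fold lower with loss of RALY, with all mice included the largest difference of the 6 genes. The log2 difference of Map3k5 was larger in size without control 2 (1.125 against −1.117) and without L-RalyKO 2 (1.066 against −1.051). The controls of Tsc22d1 spanned a wider range than the L-RalyKO mice, and the lowest control was still 1.89 times the highest L-RalyKO mouse. The annotation gives Tsc22d1 7 protein-coding transcripts with 6 different starts, and the values add them up, so that its long and short forms cannot be told apart here. The values of the other genes add up their transcripts too.

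**Figure D1:**
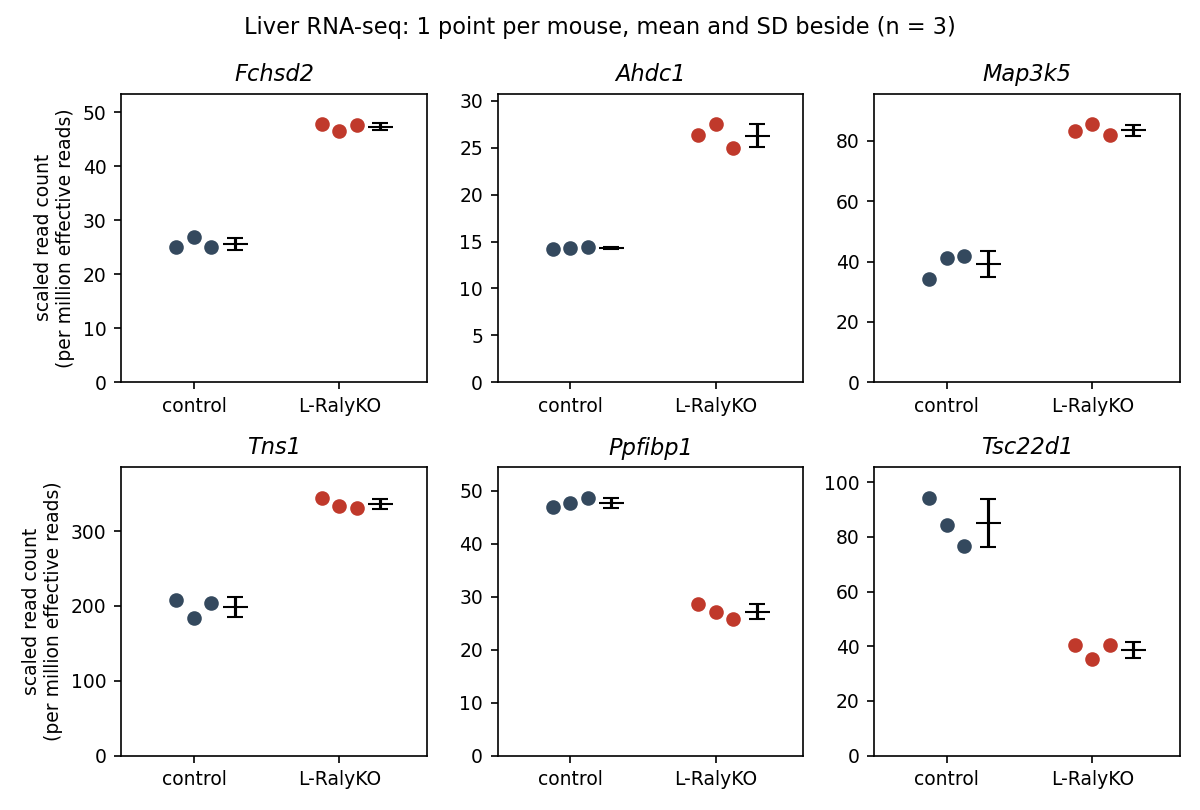
Scaled read count of the 6 genes in each liver, with 1 point per mouse and the mean ± SD of 3 mice beside the points (dark, controls, red, L-RalyKO). In every panel the groups are apart, by 1.59-fold between the nearest mice for Tns1 and by 1.96-fold for Map3k5.

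The closeness of the replicates was set against the error of counting reads. The counting error alone would give the 3 controls a coefficient of variation (CV) of 4.63% for Ahdc1, and the CV was 0.874%. The CV was also under the counting error for Fchsd2 in L-RalyKO liver (1.43% against 2.44%) and for Ppfibp1 in controls (1.84% against 2.54%). In all, 3 of the 12 group CVs of the 6 genes (25%) were below the counting error, and so were 26.7% of the control CVs and 27.8% of the L-RalyKO CVs of all tested genes. Values that lie this close cannot be read as a smaller variation between mice. In the controls the CVs of Map3k5 (11.1%), Tsc22d1 (10.4%) and Tns1 (6.66%) were 3.94, 5.45 and 5.34 times the counting error, where the median of tested genes was 1.55 times. These CVs were higher than in 73.9%, 71.0% and 49.8% of tested genes. In L-RalyKO liver the CVs of the same genes were 1.18, 2.84 and 2.275 times the counting error, with a median of 1.53 times.

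Written as a rule, no overlap, a fold of 1.7 to 2.2 and a CV in either group no larger than the largest among the 6 genes (11.1%) was met by 20 genes (0.173% of those tested), 10 higher and 10 lower. Among them were 5 of the 6 genes. Tns1, at 1.69-fold, was just outside, beside Tacc2 (1.697-fold higher). Among genes within the CV limit, the nearest above the lower bound was Akap17b (1.72-fold), and Tsc22d1 itself was the nearest under the upper bound, followed by Arhgef37 (2.16-fold), while Raly was the next above it (7.15-fold). Map3k5 set the limit of the CV, with Sowahb just inside (10.9%) and Zfp703 just outside (11.6%). With any CV, 154 genes had no overlap and a fold in this range, 72 higher and 82 lower.

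**Figure D2:**
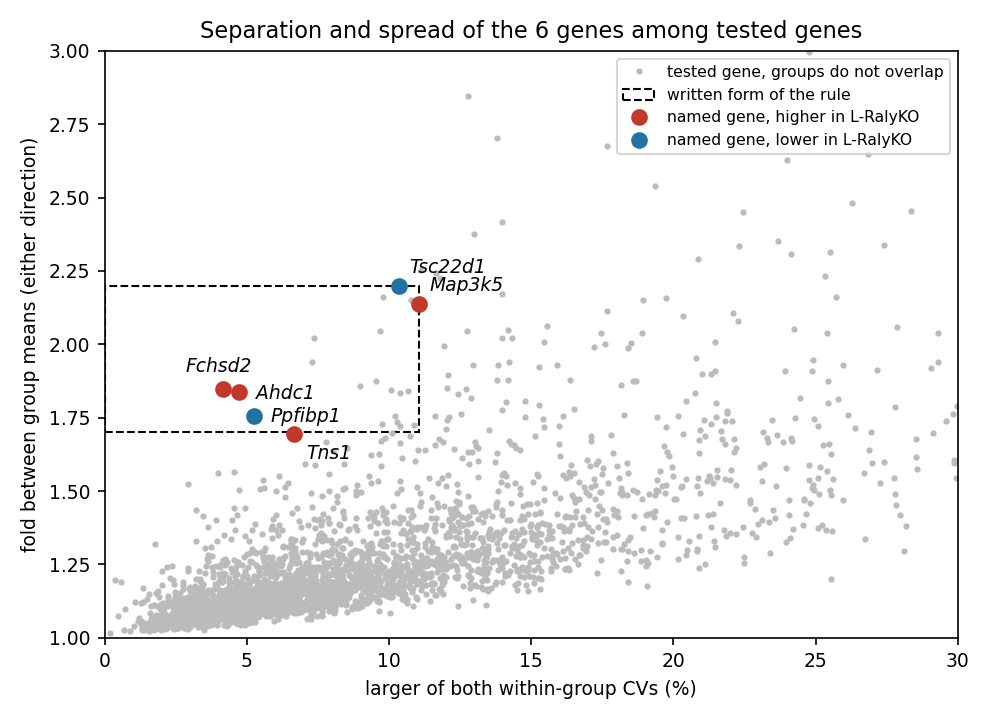
Fold between the group means in either direction against the larger of the within-group CVs, for tested genes whose groups did not overlap (grey), with the 6 genes in red (higher in L-RalyKO) or blue (lower) and the written rule as a dashed box. The axes end at 30% and 3-fold and leave out 135 of 3257 genes, and Tns1 lies just under the lower edge of the box.

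Levels can be compared between genes only per length. Per kilobase of merged exons the order in the controls was Tns1 (18.3 ± 1.22), Tsc22d1 (12.6 ± 1.31), Map3k5 (6.24 ± 0.691), Ppfibp1 (4.88 ± 0.0897), Fchsd2 (2.78 ± 0.116) and Ahdc1 (1.696 ± 0.0148). In L-RalyKO liver it was Tns1 (31.1 ± 0.646), Map3k5 (13.3 ± 0.290), Tsc22d1 (5.75 ± 0.441), Fchsd2 (5.14 ± 0.0736), Ahdc1 (3.11 ± 0.147) and Ppfibp1 (2.78 ± 0.145). In the controls no neighbours in this order overlapped between mice. In L-RalyKO liver the lowest mouse of Tsc22d1 (5.24) was close to the highest of Fchsd2 (5.19), and the lowest of Ahdc1 (2.96) to the highest of Ppfibp1 (2.93), distances smaller than the SD of Tsc22d1 and of Ahdc1.

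**Figure D3:**
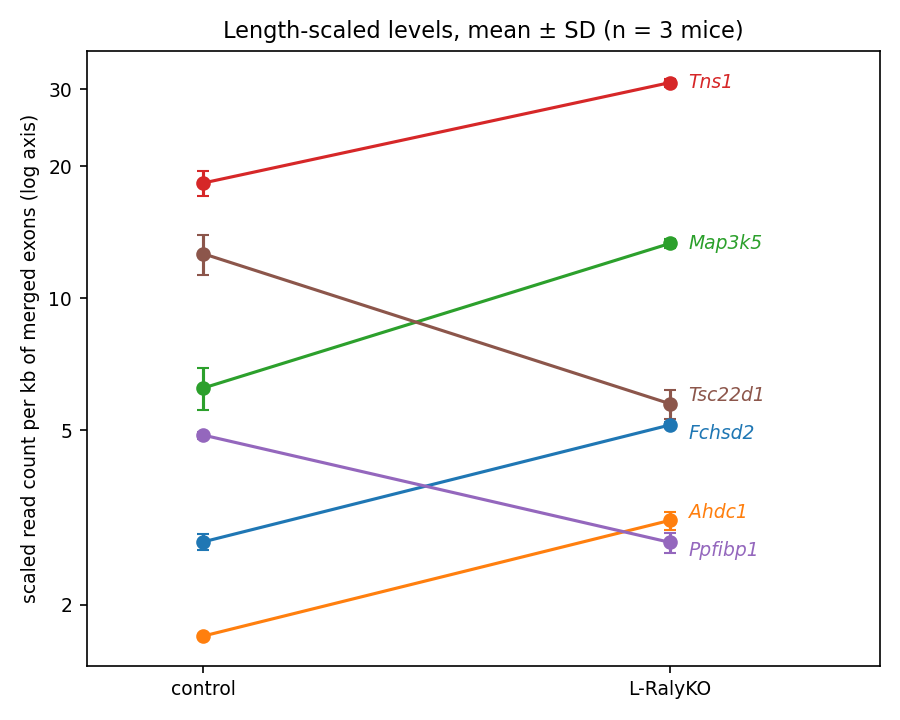
Scaled read count per kilobase of merged exons (log axis) of the 6 genes in control and L-RalyKO liver, as mean ± SD of 3 mice. The lines of Map3k5 and Tsc22d1 cross, from 6.24 and 12.6 in controls to 13.3 and 5.75 in L-RalyKO liver, and Ppfibp1 passes from above Fchsd2 and Ahdc1 to below both.

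The 6 genes are long. The rule did not name length, but it asked for close values, and these values carry no correction for length. The merged exons of the 6 genes are longer than those of 79.8% (Map3k5) to 96.5% (Tns1) of tested genes. The part of length in the choice was not tested. In GENCODE vM1 (NCBIM37) Fchsd2 (ENSMUSG00000030691.8) lies on chromosome 7 from 108257289 to 108432919 and Ppfibp1 (ENSMUSG00000016487.9) on chromosome 6 from 146837009 to 146980547. Ahdc1 (ENSMUSG00000037692.8) lies on chromosome 4 from 132567175 to 132634025 and Map3k5 (ENSMUSG00000071369.4) on chromosome 10 from 19654278 to 19862559, and all of these are on the + strand. On the − strand, Tns1 (ENSMUSG00000055322.7) spans 73956805 to 74171021 of chromosome 1. Tsc22d1 (ENSMUSG00000022010.11) spans 76814768 to 76907569 of chromosome 14 (+ strand). They span 66.9 kb (Ahdc1) to 214 kb (Tns1), where the median of tested genes is 23.7 kb, and all 6 are above the upper quartile of 54.1 kb. Of the 12 other genes that met the written rule and had a length, 5 were above that quartile (median 47.3 kb). With the tested genes split by length at the quartiles, the median log2 difference was 0.0089 in the shortest genes and −0.011 in the longest, and the groups did not overlap in 25.6% and 31.0% of them.

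None of the 6 genes shared a 50-base word of its protein-coding transcripts with another gene. Within Ppfibp1 the gene 1700034J05Rik lies on the opposite strand, with values of at most 0.087 in any mouse, and Fchsd2 overlaps pseudogenes that the table does not list. The libraries were stranded, and whether the counting used strand is not given in the sources used here.

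The nearest tested gene on each side was examined for every member, 12 in all. Of these, 1 (8.33%) had an adjusted p under 0.05, where the background is 6.55%. It was Rufy4, on the opposite strand 1094 bp from Tns1, with low values of 0.873, 1.31 and 0.816 in L-RalyKO mice and of 2.98, 2.31 and 1.703 in controls (log2 difference −0.73, standard error 0.16, adjusted p = 0.0366, limma). Rufy4 was thus lower where Tns1 was higher. The log2 difference of Rufy4 was −1.14 with a pseudocount of 0.1, −1.22 with edgeR and −1.23 with DESeq2. Without control 1, control 2, L-RalyKO 1 or L-RalyKO 3, or with no filter on low genes, the adjusted p of Rufy4 was no longer under 0.05. It ran from 0.00192 to 0.114 over all 13 alternatives. The other neighbours lay between 4987 bp (Atg16l2 from Fchsd2) and 1035347 bp (Igfbp5 from Tns1) away. Their log2 differences ran from −0.21 (Stk38l, 109675 bp from Ppfibp1, adjusted p = 0.179) to 0.15 (Atg16l2, adjusted p = 0.499, both limma), and these did not pass the test.

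The closest paralogues were listed with the design, and 9 of 10 were tested, since Fchsd1 stayed under the minimum with values of 0.568 to 0.789. Ppfibp2 (liprin-β2) was lower, as Ppfibp1 was, with values of 22.3, 20.2 and 20.1 in L-RalyKO mice and of 27.7, 31.6 and 27.3 in controls (log2 difference −0.45, 95% interval −0.62 to −0.28, adjusted p = 0.0115, limma). Ppfia1 (liprin-α1) had a log2 difference of 0.10 (95% interval −0.04 to 0.24, adjusted p = 0.391, limma). Tns2, listed under its older symbol Tenc1, was higher, as Tns1 was, with values of 95.6, 92.9 and 90.4 against 59.1, 72.6 and 62.7 (log2 difference 0.52, 95% interval 0.35 to 0.69, adjusted p = 0.00657, limma). Tns3 had a log2 difference of −0.02 (95% interval −0.22 to 0.18, adjusted p = 0.921, limma).

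Of the kinases closest to Map3k5, Map3k15 (ASK3) was lower, with values of 0.989, 1.51 and 1.61 in L-RalyKO mice and of 3.04, 2.45 and 2.92 in controls (log2 difference −0.69, adjusted p = 0.0196, limma). Without control 1 or L-RalyKO 1 it did not pass (adjusted p of 0.0724 and 0.0578, limma). The log2 difference of Map3k15 was −1.007 with a pseudocount of 0.1, −1.035 with edgeR and −1.039 with DESeq2. Map3k6 (ASK2), which pairs with ASK1, had a mean of 4.34 ± 1.23 against 2.25 ± 1.13 with overlapping groups, and its log2 difference of 0.75 did not pass (adjusted p = 0.119, limma). It passed without control 3, with DESeq2 and with a replicate block. Among the relatives of Tsc22d1, Tsc22d3, which encodes the glucocorticoid-induced GILZ, had values of 89.0, 82.9 and 154 in L-RalyKO mice and of 186, 160 and 196 in controls (log2 difference −0.78, standard error 0.20, adjusted p = 0.0594, limma). The L-RalyKO mouse 3 lay near the controls, and without it the gene passed the test (adjusted p = 0.00187, limma). It also passed with total count scaling and with a replicate block (adjusted p of 0.0495 and 0.0247, limma). With edgeR (adjusted p = 0.242) and DESeq2 (adjusted p = 0.143) it did not. Tsc22d2 (0.02, adjusted p = 0.92) and Tsc22d4 (0.05, adjusted p = 0.824) did not pass the test (limma).

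**Figure D4:**
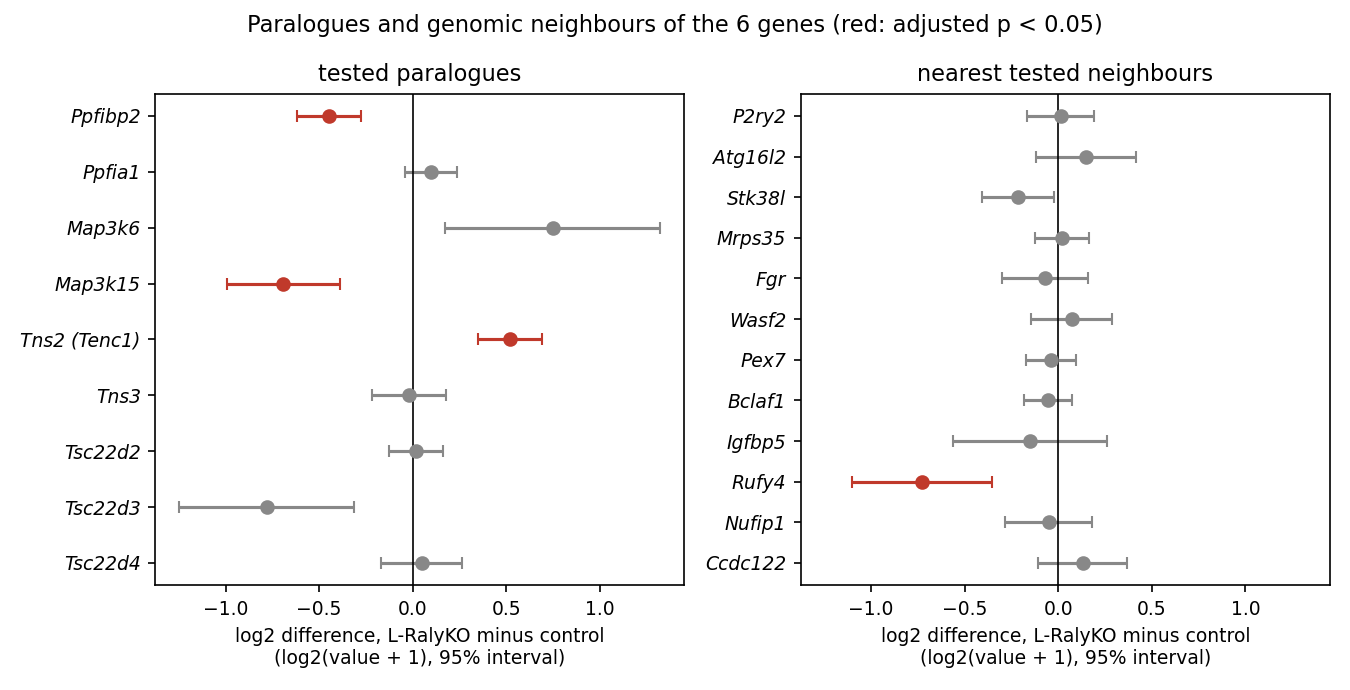
Log2 difference (L-RalyKO minus control, on log2(value + 1)) with its 95% interval from limma for the 9 tested paralogues (left) and the 12 nearest tested neighbours (right), red where the adjusted p was under 0.05. Ppfibp2, Map3k15 and Tns2 (Tenc1) are red on the left, and Rufy4 alone on the right.

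The pathways around the 6 genes were described with lists of 149 genes in all, of which 132 were tested. Of these, 3 rose and 8 fell (8.33% at adjusted p under 0.05, limma, against 6.55% of all tested genes), and their median log2 difference was 0.03 against 0.00 over all tested genes. Over all tested genes edgeR called 3.39% higher and 3.38% lower, and DESeq2 4.67% and 4.72%. The count of falls was 4 without L-RalyKO 1 or 2 and 5 without control 1 or 2, and the count of rises was 6 without control 3. With total count scaling 2 rose and 11 fell. Tns2 (Tenc1), Ppfibp2, Tgfbr2 and Tgif1 passed in every setting run.

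Of 27 tested genes of the ASK1, p38 and JNK module, 0 rose and 1 fell (Map3k15), and 5 had an unadjusted p under 0.05, as did 22.7% of all tested genes (median log2 difference 0.05). Txn1, the thioredoxin that binds ASK1, had a log2 difference of −0.01 (adjusted p = 0.93, limma). Jun had values of 37.9, 25.8 and 21.6 against 17.8, 14.4 and 20.9 and did not pass (adjusted p = 0.0941, limma). For rises in this module edgeR also gave 0 and DESeq2 gave 1 (Map3k6). Of 24 tested genes of tensins and focal adhesions, 1 rose (Tns2) and 3 fell, and 9 had an unadjusted p under 0.05 (median −0.03). Vcl (vinculin) had values of 49.4, 49.2 and 49.2 in L-RalyKO mice and of 59.1, 59.2 and 58.8 in controls (log2 difference −0.25, adjusted p = 0.0127, limma). Fermt2 (kindlin-2, −0.26, adjusted p = 0.0228) and Dlc1, whose product binds tensins (−0.30, adjusted p = 0.0461), were the other falls (limma). The call was lost in 1 of 13 alternatives for Vcl (without L-RalyKO 1), in 4 for Fermt2 (without control 1 or 2, or L-RalyKO 2 or 3) and in 7 for Dlc1.

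Of 32 tested genes of F-BAR proteins and clathrin endocytosis, 0 rose and 1 fell, the scaffold Itsn2 (log2 difference −0.30, adjusted p = 0.0441, limma), which lost the call in 7 of 13 alternatives (median of the list 0.04). With edgeR and with DESeq2 0 rose and 2 fell (Itsn2 and Snx18). In this list 3 genes of either direction had an unadjusted p under 0.05 (limma), as did 22.7% of all tested genes. Of 17 tested genes of liprins and the cortical microtubule platform, 0 rose and 2 fell, Ppfibp2 and Phldb2, a cortical anchor of microtubules (log2 difference −0.36, adjusted p = 0.0149, limma, median of the list −0.01). The call of Phldb2 was lost without L-RalyKO 1 or 2. Here 7 genes had an unadjusted p under 0.05 (limma), against 22.7% of all tested genes. In this list edgeR and DESeq2 each called 3 falls (Clasp2 as well), and rises numbered 0 with edgeR and 1 with DESeq2 (Kank1). Of 9 tested genes of the TSC22, NRBP and WNK group, 1 rose, the pseudokinase gene Nrbp2 (0.29, adjusted p = 0.0433, limma), which lost the call in 7 of 13 alternatives (median 0.04). None fell with limma, edgeR or DESeq2, and 3 had an unadjusted p under 0.05 with limma.

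Of 16 tested genes of TGF-β signalling, 1 rose and 1 fell, and 5 had an unadjusted p under 0.05 (limma), against 22.7% of all tested genes (median of the list 0.05). Tgfbr2, the receptor that binds the ligand, had values of 36.0, 42.9 and 38.6 in L-RalyKO mice and of 63.0, 58.0 and 53.7 in controls (log2 difference −0.56, adjusted p = 0.00641, limma). Tgif1, a repressor of SMAD-dependent transcription, had values of 10.97, 11.9 and 8.63 against 5.36, 6.31 and 6.27 (0.71, adjusted p = 0.0114, limma). Of 7 tested AT-hook genes 0 passed with limma, where 1 had an unadjusted p under 0.05 (median 0.14). By edgeR 0 passed as well, and by DESeq2 1 did (Baz2a).

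The genes whose pattern over the 6 livers was most like that of each member were found by the root mean square difference of centred log2(value + 1) profiles. For Fchsd2 these were Ahdc1 (0.060), Arl13b (0.090) and Tob1 (0.093), and for Ahdc1 they were Fchsd2, Tns1 (0.078) and Myo1e (0.082). For Tns1 they were Klf9 (0.055), Gstp1 (0.068) and Tuft1 (0.077). Klf9, a zinc-finger transcription factor that glucocorticoid induces, had values of 157, 157 and 154 in L-RalyKO mice and of 89.5, 82.0 and 99.5 in controls. For Map3k5 they were Klf11 (0.082), Srrm4 (0.10) and Nab2 (0.10), with values for Klf11 of 22.2, 22.0 and 21.8 against 8.05, 11.99 and 11.4. Like Map3k5, Klf11 was lowest in control 1. For Ppfibp1 they were Gm13051 (0.096), Arhgap24 (0.10) and Plcxd1 (0.11), and for Tsc22d1 they were Ttbk1 (0.11), Gm13152 (0.11) and Klhdc7a (0.13). The group difference is part of this likeness.

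Markers of the cells that a liver piece can hold were examined as well, since in bulk liver fewer cells of a type and less RNA per cell cannot be told apart. All 9 hepatocyte markers were present, with summed values of 107434 to 108098 in L-RalyKO mice and of 96003 to 104902 in controls, and all 9 had a log2 difference above 0. Their median log2 difference was 0.12 against 0.00 over all tested genes. Of the 9, limma and edgeR called 2 higher (Hnf4a and Tdo2), and DESeq2 called 4 (Apoa1 and Cps1 as well). Over all tested genes limma called 3.36% higher, edgeR 3.39% and DESeq2 4.67%. The hepatocyte sums did not overlap between the groups, with control 1 lowest. Alb made up 65.2% to 68.5% of each sum, and its own values overlapped (adjusted p = 0.889, limma), while the sum of the other 8 was 37148 to 37343 against 32145 to 34351. There was no overlap either in the sum of 5 adipocyte markers (4.77 to 6.30 against 7.61 to 39.3), nearly all of which was Cidec, which hepatocytes also express. Adipoq, Lep, Retn and Plin1 were each at 0.209 or less in every mouse. The sums overlapped between the groups for 8 Kupffer cell markers (172 to 220 against 170 to 242), 7 markers of sinusoidal endothelium (207 to 265 against 235 to 245) and 8 of stellate cells and fibroblasts (212 to 279 against 221 to 246). They also overlapped for 5 cholangiocyte markers (32.2 to 41.0 against 32.5 to 34.7), 7 of lymphocytes and neutrophils (6.59 to 8.92 against 8.46 to 10.8) and 5 erythroid markers (686 to 1358 against 706 to 1182). In these 6 lists and the adipocyte list 0 genes were called by limma or edgeR, and DESeq2 called 1 (Sox9, higher). An unadjusted p under 0.05 was found by limma for 1 gene each of the stellate, cholangiocyte and adipocyte lists, and for 22.7% of all tested genes. None of the markers was at 0 in all 6 mice. The part of the hepatocyte and adipocyte sums in the values of the 6 genes was not tested.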

How the data were processed

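Liver RNA-seq of 3 L-RalyKO and 3 control mice was used, fewer per group than the study states for this experiment. The ATAC-seq and ChIP-seq samples were not analysed here. Per the study's methods, reads of stranded libraries were aligned with TopHat to mm9 and quantified with Cufflinks 2.0.2. The authors deposited a normalised signal, in which the count of a gene is set relative to the effective size of its library, and not FPKM. All values (100% per library, tolerance 0.01) were whole multiples of the value of 1 read, and the scaling equalled edgeR's TMM factors, so reads were recovered (28302983 to 38052705 per mouse). A gene with 3 reads has a value of 0.0789 to 0.105.

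Groups were compared with limma 3.58.1 (R 4.3.3) with an intensity trend on log2(value + 1) over the 11580 genes with a mean of at least 1, with Benjamini-Hochberg adjustment over all of them. The 6 genes were given no test, because they were picked on this contrast. The members and lists were chosen with earlier results of these data known. Named are the 6 genes, Raly, listed paralogues, called list genes, nearest tested neighbours, the 3 genes of most similar profile and the genes at the edges of the written rule. Jun, Txn1 and single markers, and genes called only by edgeR or DESeq2, were named after their values were seen. The lists cover the ASK1 module, tensins, F-BAR proteins, liprins, TSC22, TGF-β, AT-hook proteins and 8 kinds of marker.

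Gene models come from GENCODE vM1 and promoter windows from RefSeq (GRCm38.p6), matched exactly to NCBIM37, for 6 of 6 genes. The fits were first run on simulated counts with the same extra variation for every gene and no library that stood apart. Such a run checks the code and does not measure errors in these livers, where a control library stood apart. Alternatives were a pseudocount of 0.1, total count and upper-quartile scaling, no filter, edgeR 4.0.16 and DESeq2 1.42.0 on recovered reads, a replicate block and leaving out each mouse. The labels name separate replicates, taken here as separate mice.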

Additional observations from a re-analysis of the deposited data

How the results depend on the processing

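Over the 10 alternatives the log2 differences of the 6 genes ran from 0.83 to 0.89 for Fchsd2, −0.83 to −0.76 for Ppfibp1, 0.80 to 0.87 for Ahdc1, 0.99 to 1.13 for Map3k5, 0.70 to 0.79 for Tns1 and −1.19 to −1.04 for Tsc22d1. Since the groups do not overlap, no mouse left out could turn a direction. The genes were also picked for close replicates in these livers, and a change of scaling moves all genes nearly alike. These ranges are therefore a description and no test of stability. The written rule was met by 58 genes with a fold of 1.5 to 2.5, against 20.

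Of all tested genes, 389 rose and 369 fell. With total count scaling 324 rose and 469 fell, and without a filter on low genes 254 and 230. Leaving out a mouse gave 168 to 454 rises and 164 to 359 falls, with 182 and 187 without control 1, 168 and 164 without L-RalyKO 1, 220 and 217 without L-RalyKO 2, and 254 and 237 without L-RalyKO 3, where fewer mice were tested. Of the related genes, 3 rose and 8 fell. DESeq2 gave 6 rises, beside 541 rises and 547 falls over all tested genes, and leaving out a mouse gave 2 to 6 rises and 4 to 7 falls. The cause was not tested.

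The deviations of same-numbered mice had correlations of 0.066, −0.024 and 0.020, and those of other pairs ran from −0.088 to 0.060. Such correlations over all tested genes cannot show whether the numbers pair the mice. The main fit assumed no pairing. With the replicate block 353 genes rose and 351 fell, and of the related genes 5 rose and 9 fell. Map3k6 passed with DESeq2, with the block and without control 3, and Tsc22d3 with total count scaling, with the block and without L-RalyKO 3.

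Signs changed only for genes that did not pass the test. With total count scaling they were −0.020 for P2ry2, −0.012 for Mrps35 and −0.018 for Tsc22d2. Leaving out a mouse gave −0.045 to 0.065 for P2ry2, −0.028 to 0.052 for Mrps35, −0.017 to 0.16 for Wasf2, −0.37 to 0.019 for Igfbp5, −0.14 to 0.031 for Nufip1, −0.096 to 0.057 for Tns3, −0.018 to 0.072 for Tsc22d2 and −0.037 to 0.12 for Tsc22d4. The alternatives were run for Raly, the neighbours, the paralogues and the called list genes (30 genes), and not for the other genes named. Over these and 13 alternatives, 332 of 390 values kept direction and side of the threshold, 35 lost the call, 6 gained it and 17 changed sign.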
